A study of Mus musculus with 2 samples.

Results

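The IER, GADD45, BTG and SGK1 genes described here are early stress-response genes, chosen by name: every gene and transcript row whose GENCODE M21 gene name was Ier2, Ier3, Ier5, Ier5l, Gadd45a, Gadd45b, Gadd45g, Btg1, Btg2 or Sgk1. They made up 10 of 55536 annotated genes (10 of 22028 protein-coding genes) and 32 of 141767 transcript models, and all 10 had reads in both libraries. The RNA came from the nucleoplasmic fraction of macrophages grown from the bone marrow of C57BL/6J mice, and the cells had been given Lipid A (100 ng/ml, 40 min), the membrane anchor of bacterial lipopolysaccharide and a ligand of TLR4. It was depleted of ribosomal RNA and sequenced as total RNA in 2 libraries, biological replicates 1 and 2 of 1 group. Sex and age were not collected, and the purity of the fraction was not measured here. No library without Lipid A, of another time or of another fraction was analysed here, and the values below therefore describe levels, not a response.

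Immediate early genes are switched on by signals that reach transcription factors already present in the cell, so their transcripts appear before any new protein is needed. Many are short genes with unstable mRNA. GADD45 proteins are small nuclear adaptors that bind PCNA, p21 and upstream kinases of the p38 and JNK pathways, BTG proteins tether the CCR4-NOT deadenylase to mRNA, IER proteins act in cell survival and phosphatase regulation, and SGK1 is a kinase related to AKT.

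Expected counts over all entries totalled 19630046 for replicate 1 and 18434601 for replicate 2. Over annotated genes they were 19498126 and 18398454. The input was 1 µg of RNA for replicate 1 but 500 ng for replicate 2, a difference that cannot be told apart from the replicate. Both libraries carry the same donor identifier, so their spread may be smaller than that between animals. All 10 macrophage markers listed (such as Lyz2, Csf1r and Cd68) were detected, with summed levels of 7852 TPM in replicate 1 and 4929 TPM in replicate 2. Of 26 markers of neutrophils, T cells, B cells, fibroblasts, erythroid cells and megakaryocytes, 2 were detected, Cd4 at 22.2 and 16.1 TPM and Gp9 at 1.24 and 1.02 TPM. Another 7 had no count in either library, among them Cd3e, Cd3g, Ly6g and Elane. The part of other cell types in the levels below was not tested. In bulk RNA, fewer cells of a type and less RNA per cell cannot be told apart.

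Most of these genes were among the abundant protein-coding transcripts of the nucleoplasm. A level is given in TPM, a length-corrected share of all transcripts, and detection means 1 TPM or more in each library. Detection held for 9 of the 10 genes, against 40.0% of all protein-coding genes. A level of at least 10 TPM in both libraries was reached by 8 of 10, against 14.3% of protein-coding genes, and 100 TPM by 1 of 10 (Gadd45b), against 1.29%. The median of the 10 mean levels was 69.4 ± 25.8 TPM (SD, n = 2), beside 7.42 ± 1.78 TPM for the 8810 detected protein-coding genes. Together the 10 genes took 36640 expected counts in replicate 1 and 27186 counts in replicate 2, or 0.188% and 0.148% of all counts assigned to annotated genes. Gadd45b alone held 37.5% of their summed TPM in replicate 1 and 36.4% in replicate 2.

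**Figure D1:**
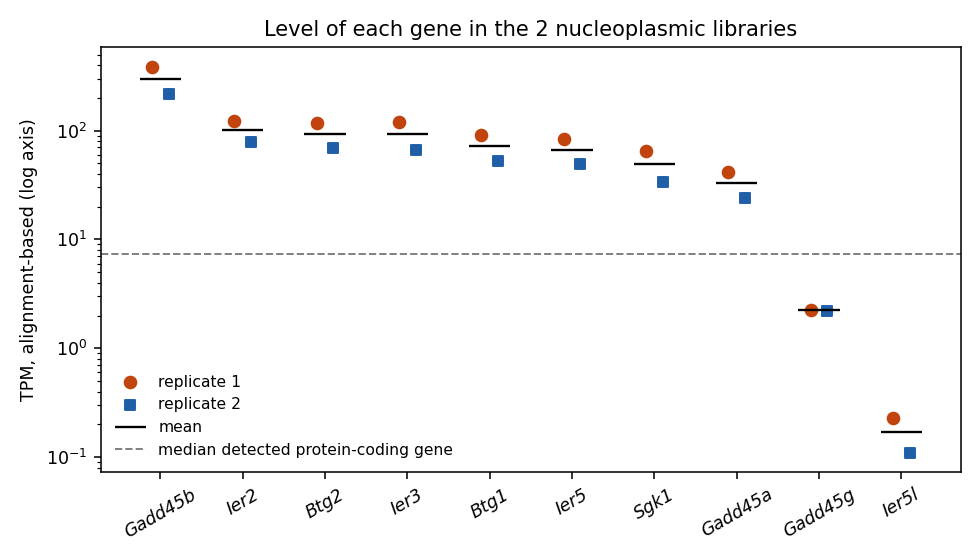
Level of each gene in TPM (log axis), ordered by the mean of both libraries; circles are replicate 1, squares replicate 2, short bars the mean, and the dashed line the median detected protein-coding gene. From Gadd45b to Gadd45a, 8 genes lie above the dashed line in both libraries, while Gadd45g and Ier5l lie below it.

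The GADD45 family spanned a wide range of levels. Gadd45b (ENSMUSG00000015312.9, chr10:80930073-80932204, plus strand), an NF-kB target known to restrain JNK signalling through MKK7, stood first. Its level was 387 TPM in replicate 1 (7620 counts) and 215 TPM in replicate 2 (5385 counts), with a mean of 300.8 ± 121 TPM. Of detected protein-coding genes, 98.9% had a lower mean. Gadd45a (ENSMUSG00000036390.8, chr6:67035096-67037457, minus strand), a p53 target that takes part in growth arrest, had 41.6 TPM in replicate 1 (780 counts) and 24.2 TPM in replicate 2 (522 counts), a mean of 32.9 ± 12.3 TPM. Gadd45g (ENSMUSG00000021453.2, chr13:51846678-51848468, plus strand), the family member known for cytokine induction in T cells, had 2.25 TPM in replicate 1 and 2.22 TPM in replicate 2, from 39 and 53 counts (95% exact Poisson intervals 27.7 to 53.3 and 39.7 to 69.3 counts). The 3 paralogs did not overlap: the lower Gadd45b library was above both Gadd45a libraries, and these were above both Gadd45g libraries. Gadd45a exceeded Gadd45g by 18.5-fold in replicate 1 and 10.9-fold in replicate 2.

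The Gadd45b promoter is printed because this gene led the set. The 250 bases before the RefSeq transcription start lie at chr10:80929841-80930090 on the plus strand (GRCm38.p6, the mm10 assembly), and capitals mark a TATAAA motif beginning 46 bases and CCAAT motifs beginning 139 and 100 bases upstream of the start.
Gadd45b promoter: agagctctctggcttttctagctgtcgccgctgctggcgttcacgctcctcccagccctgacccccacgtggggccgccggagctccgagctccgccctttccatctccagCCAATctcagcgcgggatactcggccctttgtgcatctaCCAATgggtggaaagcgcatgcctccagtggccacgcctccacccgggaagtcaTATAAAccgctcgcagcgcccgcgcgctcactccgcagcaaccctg
The TATAAA motif was found in 13.6% and CCAAT in 37.4% of the 32851 RefSeq promoter windows (250 bases before to 50 after a start, both strands searched).

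Among the IER genes, 3 were abundant and 1 was close to absent. Ier2 (ENSMUSG00000053560.4, chr8:84661331-84662852, minus strand), a nuclear protein induced by growth factors, had 123 TPM in replicate 1 (3484 counts) and 78.0 TPM in replicate 2 (2888 counts), a mean of 100.6 ± 31.9 TPM. Ier3 (ENSMUSG00000003541.6, chr17:35821684-35822923, plus strand), also called IEX-1, an NF-kB target that influences apoptosis, had 119.9 TPM in replicate 1 (2385 counts) and 65.8 TPM in replicate 2 (1699 counts), a mean of 92.9 ± 38.2 TPM. Ier5 (ENSMUSG00000056708.5, chr1:155096361-155099636, minus strand), which in human cells brings the phosphatase PP2A to the heat shock factor HSF1, had 84.2 TPM in replicate 1 (5562 counts) and 49.7 TPM in replicate 2 (4336 counts), a mean of 67.0 ± 24.4 TPM. In each of these the library of replicate 1 was higher, and the 3 genes overlapped one another. Ier5l (ENSMUSG00000089762.3, chr2:30471537-30474219, minus strand), the paralog of Ier5, was the exception at 0.23 TPM in replicate 1 and 0.11 TPM in replicate 2, from 12 and 8 counts (95% exact Poisson intervals 6.20 to 20.96 and 3.45 to 15.8 counts). It was the only one of the 10 genes that was not detected. The Ier5 and Ier5l transcripts shared 4 sequences of 31 bases, 0.123% of those of Ier5.

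The Ier3 promoter is printed because it held the only NF-kB site found in the windows of the 9 genes searched, and NF-kB is activated through TLR4. It lies at chr17:35821463-35821712 on the plus strand, and capitals mark the NF-kB site (on the minus strand, 92 bases upstream) and CCAAT motifs at 244 and 175 bases upstream.
Ier3 promoter: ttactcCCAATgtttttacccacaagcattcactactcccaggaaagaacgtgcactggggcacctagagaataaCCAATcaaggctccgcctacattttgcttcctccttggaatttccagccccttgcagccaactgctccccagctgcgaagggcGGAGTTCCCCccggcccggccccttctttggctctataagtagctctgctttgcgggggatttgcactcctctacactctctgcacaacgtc
A match to the NF-kB site was present in 4.51% of all windows. A match describes the letters in the window and not binding.

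Both BTG genes were abundant and close to each other. Btg2 (ENSMUSG00000020423.6, chr1:134075170-134079120, minus strand), an antiproliferative protein and p53 target, had 117 TPM in replicate 1 (6394 counts) and 68.6 TPM in replicate 2 (4942 counts), a mean of 92.9 ± 34.3 TPM. Btg1 (ENSMUSG00000036478.8, chr10:96617006-96622809, plus strand), its close relative, had 91.1 TPM in replicate 1 (7803 counts) and 52.6 TPM in replicate 2 (5744 counts), a mean of 71.85 ± 27.2 TPM. Btg1 had more counts but a lower TPM, over a leading transcript of 5001 bases, against 2743 bases for Btg2. The levels of the pair overlapped between libraries.

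The Btg2 promoter is printed because it held the only full cyclic AMP response element, TGACGTCA, in the windows of the 9 genes searched. It lies at chr1:134079156-134079405 and is written along the minus strand, on which the gene lies. Capitals mark TGACGTCA 166 bases upstream and CCAAT at 173 and 34 bases upstream.
Btg2 promoter: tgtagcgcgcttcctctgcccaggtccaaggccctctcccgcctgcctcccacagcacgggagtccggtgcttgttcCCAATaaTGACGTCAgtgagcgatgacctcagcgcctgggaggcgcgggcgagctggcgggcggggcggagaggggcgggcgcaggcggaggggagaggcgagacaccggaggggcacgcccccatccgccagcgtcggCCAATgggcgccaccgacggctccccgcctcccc
TGACGTCA was present in 1.79% of all windows. The shorter TGACG, which TGACGTCA contains on both strands, was present in 20.8% of all windows. It was in 3 of the 14 windows of the 9 genes, those of Btg1, Btg2 and Sgk1, which is close to that share.

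Sgk1 (ENSMUSG00000019970.15, chr10:21882184-21999903, plus strand), the kinase that phosphorylates NEDD4L and FOXO3 and is induced by serum and glucocorticoids, had 65.0 TPM in replicate 1 (2561 counts) and 33.5 TPM in replicate 2 (1609 counts). Its mean was 49.3 ± 22.3 TPM, above that of 90.8% of detected protein-coding genes. Its place in the order depended on the table. In the FASTQ-derived transcript table, made without the alignment, Sgk1 had 57.3 TPM in replicate 1 and 43.2 TPM in replicate 2, a mean of 50.2 ± 9.93 TPM, and stood second after Gadd45b at 179.6 ± 16.7 TPM. The means of the other detected genes lay between 1.27 TPM (Gadd45g) and 45.9 TPM (Ier2) there. The FASTQ-derived TPM of a detected gene was a median of 0.559 times the alignment-based one in replicate 1 and 0.704 times in replicate 2. Its FASTQ-derived level was the lower of the pair in replicate 1 and the higher in replicate 2.

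In the order of mean TPM, Gadd45b came first, then Ier2, Btg2, Ier3, Btg1, Ier5, Sgk1, Gadd45a, Gadd45g and Ier5l. Of the 9 neighbouring pairs, 8 had the same order in both libraries. Btg2 and Ier3 switched, with a ratio of Btg2 over Ier3 of 0.978 in replicate 1 and 1.04 in replicate 2. In 3 pairs the libraries did not overlap: Gadd45b over Ier2 (3.14-fold in replicate 1 and 2.75-fold in replicate 2), Gadd45a over Gadd45g, and Gadd45g over Ier5l (9.78-fold and 20.2-fold). The TPM ranges of the other neighbours, from Ier2 to Gadd45a, overlapped between libraries. Within a library the folds of these pairs were small but of similar size in both, such as 1.32 and 1.25 for Ier3 over Btg1, 1.295 and 1.48 for Ier5 over Sgk1, and 1.56 and 1.38 for Sgk1 over Gadd45a in replicates 1 and 2. By FPKM and by TPM rescaled over protein-coding genes, 6 and 5 pairs did not overlap.

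Most of these genes were lower in replicate 2 than in replicate 1. Their TPM in replicate 2 was a median of 0.583 times that in replicate 1 over the 9 detected genes, beside 0.714 times over detected protein-coding genes. Protein-coding genes as a whole held 22.6% of the TPM in replicate 2 and 31.2% in replicate 1, so the TPM scale itself shifted between libraries. After scaling the expected counts by TMM, the log2 ratio of replicate 2 over replicate 1 was below 0 in 9 of 10 genes, beside 47.8% of the 11341 protein-coding genes with a mean count of at least 10. The median log2 ratio was -0.37 for the 10 genes, against 0.02 for those protein-coding genes (quartiles -0.20 and 0.22). No gene of the 10 was lower by more than 1.5-fold, against 6.57% of protein-coding genes, but Sgk1 lay just short of that limit. It passed the limit at a log2 ratio of -0.59 when scaled by library size only, -0.59 with a mean count of at least 100 and -0.63 by FASTQ-derived counts. With 2 libraries of 1 group there is no test of this difference, and a lower level of immediate early genes in replicate 2 was already known from these data when the genes were chosen.

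Sgk1 had the lowest log2 ratio at -0.57, with a 95% exact counting interval of -0.66 to -0.48, on 1609 counts in replicate 2, against 2561 counts in replicate 1. Among protein-coding genes 6.92% had a lower ratio. Gadd45a followed at -0.48 (-0.64 to -0.32), then Gadd45b at -0.40 (-0.45 to -0.35) and Ier3 at -0.39 (-0.48 to -0.30). Btg1 was at -0.34 (-0.39 to -0.29), Btg2 at -0.27 (-0.33 to -0.22), Ier5 at -0.26 (-0.32 to -0.20) and Ier2 at -0.17 (-0.24 to -0.10). In these 8 genes the difference was larger than counting error, which does not cover the spread between cultures. Ier5l at -0.40 (-1.98 to 0.92) and Gadd45g at 0.52 (-0.08 to 1.18) had intervals that included 0, and the log2 ratio of Gadd45g from TPM was -0.02. The median of those 8 genes was -0.37, beside 0.03 (quartiles -0.12 and 0.18) for the 3019 protein-coding genes in the same range of mean counts.

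**Figure D2:**
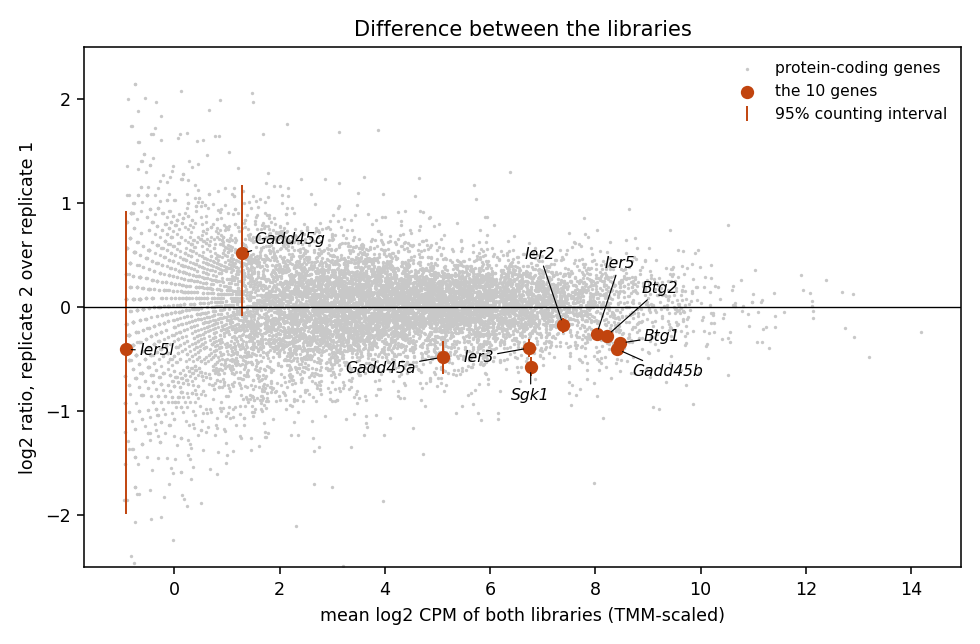
Log2 ratio of replicate 2 over replicate 1 from TMM-scaled counts against the mean log2 CPM of both libraries; grey points are protein-coding genes (19 of 11341 lie beyond the axis), orange points the 10 genes, and bars their 95% counting intervals. Of the 10 genes, 9 lie below 0, between -0.57 and -0.17, and only Gadd45g lies above it (-0.02 from TPM).

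Which of these genes could show intron-holding or alternative transcripts was set by the annotation. The values are the authors' estimates for 32 annotated models, not counts of reads that span a junction. Ier2, Ier3, Ier5, Ier5l and Btg2 had 1 model each, and Ier2, Ier5 and Ier5l have no intron at all. Btg1 had 2 coding models, and Btg1-201 held 81.3% of its TPM in replicate 1 and 77.8% in replicate 2. A retained-intron model was annotated for 4 genes, namely the 3 GADD45 genes and Sgk1. Over all 10 genes such models took 8.16% of the TPM in replicate 1 and 10.6% in replicate 2 (9.40 ± 1.75%), beside 24.8 ± 0.32% over protein-coding genes outside the mitochondrial genome. Over the 4 genes alone the share was 19.9 ± 4.12%, beside 35.1 ± 0.76% over the 9119 protein-coding genes that have such a model. The FASTQ-derived table gave higher shares, 22.3 ± 7.20% over the 10 genes and 25.9 ± 0.29% over protein-coding genes. Over the 4 genes alone its share was 39.7 ± 10.5% (32.2% in replicate 1 and 47.1% in replicate 2), beside 37.4 ± 0.24% over protein-coding genes with such a model. Summed over the 4 genes, the share was thus below that background by alignment. In the FASTQ-derived table it was below the background in replicate 1 (37.3%) and above it in replicate 2 (37.6%). Single genes differed by alignment, with Gadd45a at 41.4 ± 14.3%, Sgk1 at 22.8 ± 1.07%, Gadd45b at 17.1 ± 3.63% and Gadd45g at 16.5 ± 17.6%. The median detected protein-coding gene with such a model was at 26.0 ± 1.01%.

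The retained-intron model of Gadd45b, Gadd45b-202, had 56.2 TPM in replicate 1 and 42.3 TPM in replicate 2, which were 14.5% and 19.7% of the gene. The coding model Gadd45b-201 had 280.1 and 150.1 TPM, or 72.4% and 69.8%. In the FASTQ-derived table Gadd45b-202 had 50.3 and 76.6 TPM, or 26.3% and 45.7%. The share was thus higher there in both libraries, and the libraries differed more there than by alignment. Gadd45a had 4 such models with a summed share of 31.3% in replicate 1 and 51.5% in replicate 2, and 40.3% and 54.8% in the FASTQ-derived table. In both tables the share was higher in replicate 2, and Gadd45a-201 had 28.6 TPM in replicate 1 and 11.8 TPM in replicate 2. For Gadd45g the share was 28.9% in replicate 1 and 4.05% in replicate 2, from 9.22 and 1.63 expected counts, which is too few to compare.

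The bases at the start of exon 3 are printed because they are where the spliced models part from the intron-holding models shown. Of the 4 such models of Gadd45a only Gadd45a-203 is shown. It held 7.38% of the gene's TPM in replicate 1 and 5.32% in replicate 2, against 17.7% and 28.1% for Gadd45a-202. In each line the first 20 bases, in lower case, come before exon 3 in that model and the 20 capitals open exon 3, which both models share. The spliced models continue from exon 2, and the others from the intron, whose last bases are the ag of a splice acceptor.
Gadd45b-201 (spliced): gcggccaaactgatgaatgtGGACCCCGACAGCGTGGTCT
Gadd45b-202 (intron held): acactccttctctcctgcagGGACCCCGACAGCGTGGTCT
Gadd45a-201 (spliced): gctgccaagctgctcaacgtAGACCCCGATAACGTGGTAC
Gadd45a-203 (intron held): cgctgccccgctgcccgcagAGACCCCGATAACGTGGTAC
Gadd45g-201 (spliced): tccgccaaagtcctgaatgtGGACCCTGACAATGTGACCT
Gadd45g-202 (intron held): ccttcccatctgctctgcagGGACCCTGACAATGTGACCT
In GENCODE M21 transcripts exon 3 begins at position 80931029 of chromosome 10 (plus strand) for Gadd45b, 67036915 of chromosome 6 (minus strand) for Gadd45a and 51847556 of chromosome 13 (plus strand) for Gadd45g. The intron before it spans 479, 94 and 102 bases in that order. Gadd45b-202 begins at position 80930812, inside this intron (80930550 to 80931028), so it holds only the end of the intron and no exon 2. Over the 40 spliced bases Gadd45b matched Gadd45a at 30 and Gadd45g at 30, and Gadd45a matched Gadd45g at 25. No run of 31 bases was shared between the 3 paralogs.

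**Figure D3:**
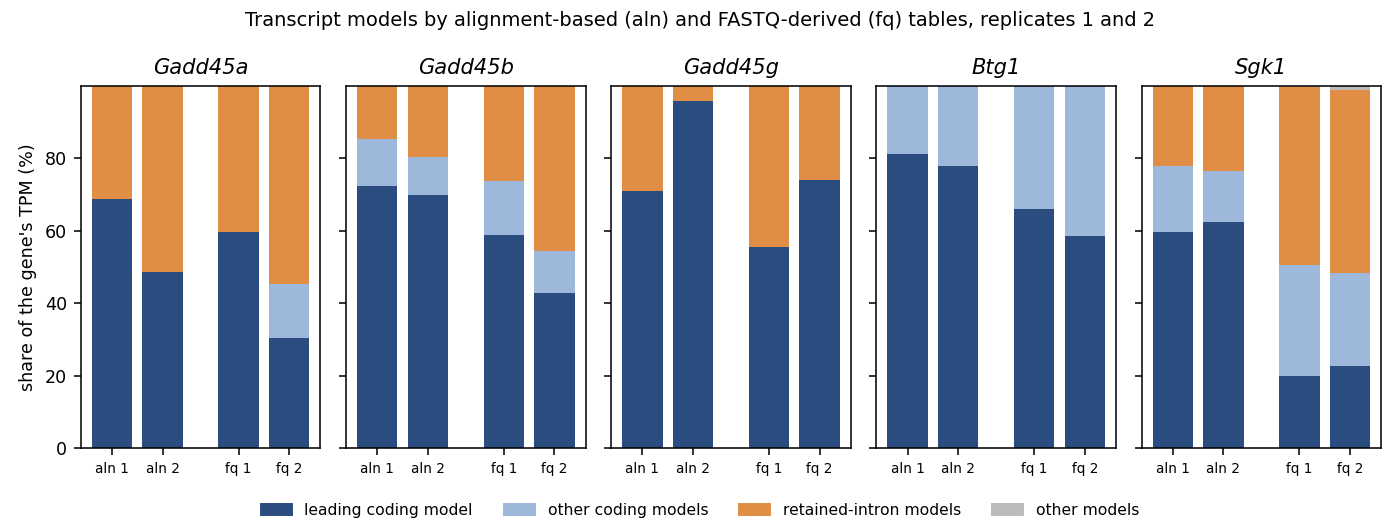
Share of each gene's TPM (%) held by its leading coding model, other coding models, retained-intron models and other models, in the alignment-based (aln) and FASTQ-derived (fq) tables for replicates 1 and 2. The retained-intron share of Gadd45a is 31.3% and 51.5% and that of Sgk1 22.01% and 23.5% by alignment, and that of Sgk1 is 48.9% and 50.6% in the FASTQ-derived table.

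Gadd45a shares 337 exonic bases with E230016M11Rik, a non-coding gene on the opposite strand (chr6:67036599-67080654). That gene had 4.19 TPM (162 counts) in replicate 1 and 2.66 TPM (127 counts) in replicate 2. The strand setting of the counting is not given in the sources used here, and without it reads of both genes in the shared bases cannot be told apart. Of the 31-base sequences of Gadd45a, 17.0% were also in E230016M11Rik, and none were in any other gene. Btg1 shared 4.08% of its own with 20 genes, led by the processed pseudogene Gm14519 (3.58%), which had 0 counts in both libraries. Ier2, Ier3, Gadd45b, Gadd45g and Btg2 shared none with another gene.

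Sgk1 has 13 models that differ mostly in where they begin. Sgk1-201 led with 38.9 TPM in replicate 1 and 20.9 TPM in replicate 2. The 3 models that begin in its first exon together held 67.4% and 76.9% of the gene's TPM (72.1 ± 6.74%), with 1927 counts in replicate 1 and 1385 in replicate 2. The 8 models with a first exon farther upstream held 16.5% and 10.1% (13.3 ± 4.56%), with 530 counts in replicate 1 and 164 in replicate 2. The remaining 2 models begin inside the gene and held 16.1% and 13.0%. On TMM-scaled counts the log2 ratio of replicate 2 over replicate 1 was -1.59 for the upstream starts and -0.38 for the first exon of Sgk1-201. In the FASTQ-derived table the ratios, scaled by the summed counts of annotated genes and not by TMM, were -2.68 and -0.04. The upstream starts had 284 counts in replicate 2 and 1450 in replicate 1 there. Summed over models, the upstream starts were lower in replicate 2 in both tables, and no test of the difference is possible with 2 libraries.

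Among the upstream starts Sgk1-203, which begins 2443 bases before Sgk1-201, had 8.27 TPM in replicate 1 and 1.69 TPM in replicate 2. Sgk1-202, which begins 776 bases before it, had 2.48 and 0.70 TPM. In the FASTQ-derived table Sgk1-203 had 5.05 and 0.14 TPM, and Sgk1-202 had 5.76 and 0.93 TPM, so both were lower in replicate 2 there too. The short Sgk1-212, which shares its start with Sgk1-203, went the other way, with 0 TPM in replicate 1 and 0.96 TPM in replicate 2 by alignment, and 0.98 and 2.91 TPM in the FASTQ-derived table. Sgk1-204, the farthest at 112482 bases, had 0 and 0.03 TPM. The second place of Sgk1 in the FASTQ-derived order went with its short retained-intron model Sgk1-209 (347 bases), at 20.0 TPM in replicate 1 and 15.9 TPM in replicate 2 there, against 0.70 and 1.29 TPM by alignment. Retained-intron models as a whole held 22.01% and 23.5% of Sgk1 by TPM, and 5.25% and 5.42% by expected counts.

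The promoter before Sgk1-201 is printed because that start led, at chr10:21994416-21994665 on the plus strand, with a TATAAA motif 11 bases upstream in capitals. Below it stand the junctions into exon 2 (first base 21994966 of chromosome 10), with the last 20 bases of each first exon in lower case and the 20 shared bases of exon 2 in capitals.
Sgk1-201 promoter: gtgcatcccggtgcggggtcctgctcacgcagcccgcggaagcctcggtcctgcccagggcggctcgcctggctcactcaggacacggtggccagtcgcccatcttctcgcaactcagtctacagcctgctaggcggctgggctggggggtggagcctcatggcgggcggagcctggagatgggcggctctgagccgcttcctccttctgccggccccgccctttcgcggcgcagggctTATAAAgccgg
Sgk1-201 junction: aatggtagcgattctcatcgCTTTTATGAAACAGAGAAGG
Sgk1-203 junction: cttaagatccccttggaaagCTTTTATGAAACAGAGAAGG
The lower-case bases are what sets a read of Sgk1-203 apart from one of Sgk1-201 at this junction.

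**Figure D4:**
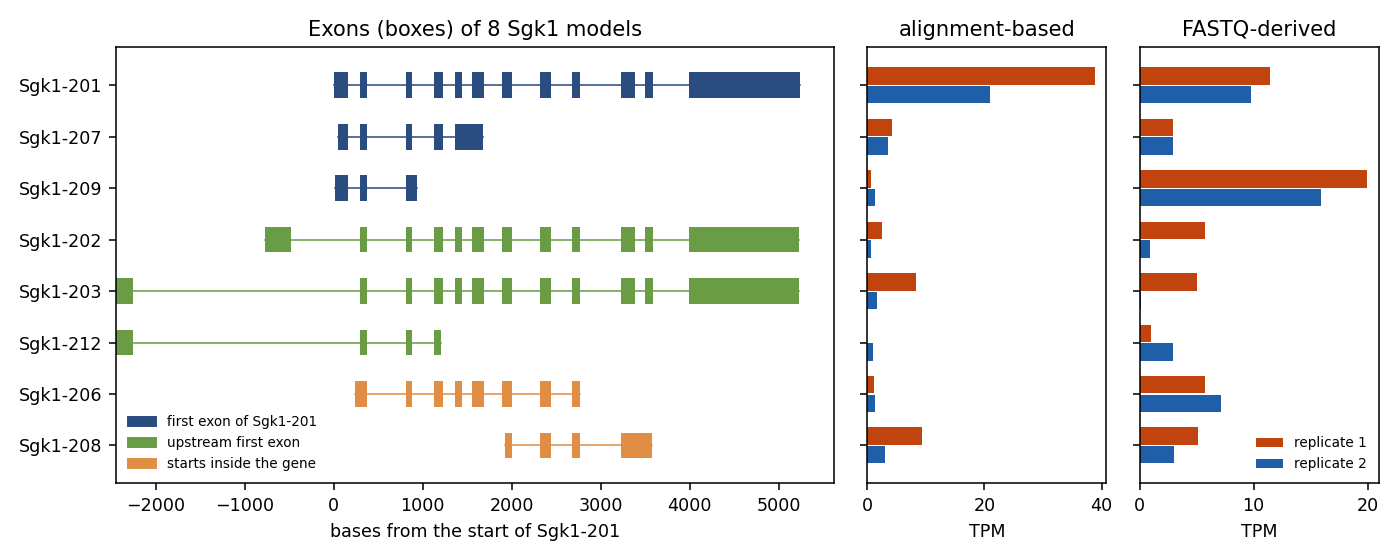
Left, exons (boxes) and introns (lines) of 8 Sgk1 models by distance in bases from the start of Sgk1-201, coloured by where they begin; right, their TPM in replicate 1 and replicate 2 in the alignment-based and FASTQ-derived tables. Sgk1-201 leads by alignment at 38.9 and 20.9 TPM, and Sgk1-209 leads in the FASTQ-derived table at 20.0 and 15.9 TPM.

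The genes shared a compact structure that their names did not fix. Their longest models had a median of 2 exons, against 10 for detected protein-coding genes, and 6 of 10 had 1 or 2 exons, against 5.46%. Gene length had a median of 2522 bases, against 25570 bases, and 9 of 10 genes were under 6 kb, against 12.1%. Sgk1 was the exception at 117720 bases, a span set by its farthest upstream start. That start is the one of Sgk1-204, which had 0 TPM in replicate 1 and 0.03 TPM in replicate 2. The leading model Sgk1-201 ends 5237 bases from its own start. Exon and ATTTA values of Sgk1 are those of Sgk1-204, its longest coding model. The pentamer ATTTA, the core of AU-rich elements that shorten the life of mRNA, was in the 3′ UTR of 7 of 10 genes, against 69.9% of detected protein-coding genes. At least 3 copies were in 5 of 10, against 38.9%. Btg1 held 11 copies in a long 3′ UTR, while Ier3 had the densest at 8.16 per kb from 5 copies, and Ier2, Gadd45b and Gadd45g held none. Gadd45b, Btg1 and Sgk1 lie on chromosome 10, and Btg2 and Ier5 on chromosome 1.

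RefSeq promoter windows were matched for 9 of the 10 genes (14 windows, Ier2 not matched). CCAAT was in 10 of the 14 windows, against 37.4% of all windows, and at least 1 window of each of the 9 genes held it. Some genes have more than 1 window, so windows are not separate genes. The share of all genes with a match in at least 1 window was not counted. TATAAA was in 5 of the 14 windows, those of Btg1, Gadd45b, Gadd45g and Sgk1, against 13.6% of all windows. Neither TGANTCA, the AP-1 motif, found in 7.81% of all windows, nor the CArG box of serum response factor, found in 1.63%, was in a window of these 9 genes. Of the motifs searched, TGACG lies within TGACGTCA, so every match of the longer one counts for both.

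Genes that work with these families were present as well. Of 53 listed relatives, partners, regulators and targets, 47 were detected, against 40.0% of protein-coding genes, and 28 had at least 10 TPM in both libraries, against 14.3%. Their median level, undetected genes included, was 13.0 TPM, beside 7.42 TPM for detected and 0.325 TPM for all protein-coding genes. The closest relatives had a median of 2.32 TPM, the lowest of the lists, and 3 of 6 were detected, against 40.0% of protein-coding genes. Sgk3 had 16.4 TPM in replicate 1 and 9.59 in replicate 2, Tob2 9.09 and 6.14 TPM, and Tob1 4.96 and 2.00 TPM. Btg4, an adaptor of mRNA decay in oocytes, had 0.21 and 0.36 TPM, and Sgk2 had no count in either library, which allows up to 3 counts per library.

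Of 9 GADD45 partners and targets, 6 were detected, with a median of 10.6 TPM. Cdkn1a, which encodes the cell cycle inhibitor p21, led with 370.4 TPM in replicate 1 and 249.1 TPM in replicate 2, near the level of Gadd45b. Mapk14, the p38 kinase, had 30.2 and 18.2 TPM, and Pcna, the replication clamp, 30.9 and 15.7 TPM. Ccnb1, the mitotic cyclin, had 1.15 and 0.85 TPM, and Gadd45gip1, a mitochondrial ribosome protein, 0.54 and 0.27 TPM.

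All 7 BTG partners were detected, with a median of 13.9 TPM. Pabpc1, the cytoplasmic poly(A)-binding protein, had 169 TPM in replicate 1 and 201.5 TPM in replicate 2. Cnot1, the scaffold of the deadenylase, had 32.7 and 31.8 TPM, and its catalytic subunits Cnot7 and Cnot8 had 16.8 and 11.4 TPM, and 3.68 and 2.65 TPM. Prmt1, an arginine methyltransferase that binds BTG proteins, had 4.50 and 3.34 TPM.

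All 9 IER partners and targets were detected, with a median of 15.9 TPM. Mcl1, an anti-apoptotic protein that binds IER3, led with 585 TPM in replicate 1 and 364 TPM in replicate 2. The PP2A scaffold Ppp2r1a had 27.2 and 25.4 TPM, its catalytic subunit Ppp2ca 29.5 and 19.1 TPM, and the regulatory subunit Ppp2r2d 10.9 and 7.45 TPM. Mapk3, the kinase ERK1, had 10.4 and 9.70 TPM.

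All 12 SGK1 regulators and substrates were detected, with a median of 15.1 TPM. Wnk1, a kinase of ion transport, had 129 TPM in replicate 1 and 102 TPM in replicate 2. Nedd4l, the ubiquitin ligase, had 58.3 and 40.9 TPM, and Pdpk1, the kinase that activates SGK1, 25.4 and 16.9 TPM. Mlst8, a subunit of both mTOR complexes, had 1.54 and 1.32 TPM, and Nr3c2, the mineralocorticoid receptor, 1.80 and 1.05 TPM.

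All 10 genes of p53 and its targets were detected, with a median of 6.82 TPM. Mdm2, the ligase that degrades p53, had 410.1 TPM in replicate 1 and 278 TPM in replicate 2. Bax, a pore-forming protein of apoptosis, had 40.7 and 24.8 TPM, and Pmaip1, which encodes NOXA, 23.2 and 12.7 TPM. Bbc3, which encodes PUMA, had 2.77 and 2.53 TPM, and Sesn2, a stress-induced regulator of mTORC1, 2.49 and 1.87 TPM. No list is set apart from other genes by these counts, since no test of a list was made.

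**Figure D5:**
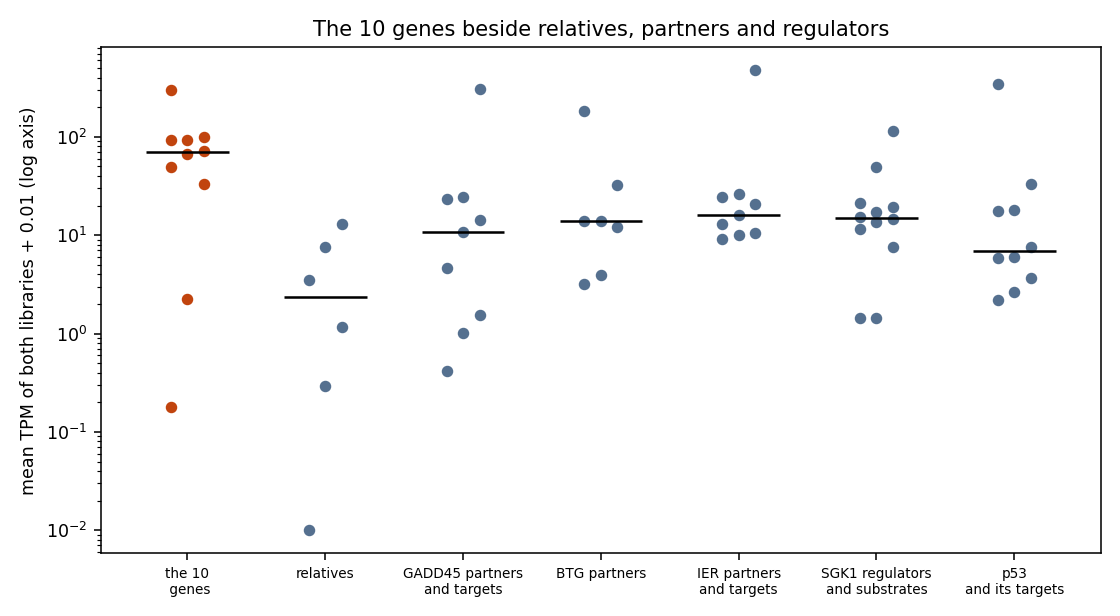
Mean TPM of both libraries plus 0.01 (log axis) for the 10 genes and 6 lists of related genes; each point is a gene and each bar a median. The median is 69.4 TPM for the 10 genes and between 2.32 and 15.9 TPM for the lists, and Mcl1, Mdm2 and Cdkn1a reach the level of Gadd45b.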

How the data were processed

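Levels were read from gene and transcript tables made by the authors for each library on mm10 with GENCODE M21, per the labels and file headers. Which aligner and quantifiers were run, and with which strand setting, is not given in the sources used here. The deposited alignment-based tables give expected counts, TPM, FPKM and a posterior mean TPM, and the authors' FASTQ-derived table gives estimated counts and TPM. TPM were used as deposited, and FASTQ-derived TPM were summed over the models of a gene. The 26248 numeric identifiers and 97 spike-in or phiX entries were left out of gene counts and ratios. They remain in the total expected counts and in the scale of the deposited TPM. TPM has a fixed sum over all features of a table, so the share held by other RNA shifts it.

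Expected counts were rounded for edgeR 4.0.16 in R 4.3.3 (TMM, prior count of 2, mean count of at least 10), with DESeq2 1.42.0 size factors as an alternative. With 2 libraries of 1 group no p-value was computed. Intervals (95%, exact) cover counting error only. The ratio step was tested on simulated data. Shared sequence was counted as identical runs of 31 bases in GENCODE M21 transcripts, and promoters came from RefSeq (GRCm38.p6). The genes and lists were chosen with earlier results of these data known. All 10 genes were named, and of each list of related genes the 3 highest and 2 lowest by mean TPM. The planned identity of proteins within families was not run.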

Additional observations from a re-analysis of the deposited data

How the results depend on the processing

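Detection held for 8 to 10 of the 10 genes under every detection minimum, table or single library tried. The median level, 69.4 TPM, was 40.6 TPM in the FASTQ-derived table and 253.8 TPM when TPM was rescaled over protein-coding genes, and 51.2 and 87.65 TPM in replicate 2 and replicate 1 alone. The number of neighbouring pairs without overlap was 3, but 5 with rescaled TPM and 6 with FPKM. The median log2 ratio of replicate 2 over replicate 1, -0.37, was -0.76 and -0.77 from TPM with a pseudocount of 1 and 0.1, where the median of protein-coding genes was -0.37 and -0.48. Of 78 alternative ratios of single genes, 76 kept their sign; the exceptions were Gadd45g from TPM, at -0.01 and -0.02. The count of genes lower by more than 1.5-fold, 0, became 1 (Sgk1) by library size only, a mean count of at least 100 or FASTQ-derived counts. It was 8 and 9 from TPM with a pseudocount of 1 and 0.1. From those TPM the lower quartile of all protein-coding genes also fell, to -0.56 and -0.72, against -0.20 from TMM-scaled counts. The share of protein-coding genes past 1.5-fold was not counted under these alternatives, so their counts have no background beside them. The retained-intron share, 9.40%, was 22.3% in the FASTQ-derived table, 2.65% by expected counts and 19.9% over genes with such a model (39.7% in the FASTQ-derived table, beside 37.4% for all protein-coding genes with one). The cause of these shifts was not tested. Leaving out a library gives no order by overlap and no ratio, so those alternatives were not run. No paired analysis was possible because there is 1 group. The counts of Gadd45g and Ier5l limit what can be said of their models and ratios.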
